A study of Mus musculus with 8 samples.

Results

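The 9 genes described here are the ligand Nodal, its co-receptor Tdgf1, the Nodal inhibitors Lefty1 and Lefty2, the inhibitory SMAD gene Smad7, the ligand Bmp4 and the BMP target genes Id1, Id2 and Id3. They were taken by gene name from a count table of 57010 genes, where they stand as ENSMUSG00000037171 (Nodal), ENSMUSG00000032494 (Tdgf1), ENSMUSG00000038793 (Lefty1), ENSMUSG00000066652 (Lefty2), ENSMUSG00000025880 (Smad7), ENSMUSG00000021835 (Bmp4), ENSMUSG00000042745 (Id1), ENSMUSG00000020644 (Id2) and ENSMUSG00000007872 (Id3). Their RNA levels were compared in mouse embryonic stem cells (ESCs). All 9 passed the filter on low counts, which kept 17976 genes. There were 4 groups of 2 RNA sequencing libraries. They were HSVTK cells with ganciclovir (GANC), HSVTK cells with the solvent DMSO, Control cells with GANC and Control cells with DMSO. HSVTK cells carry a reporter called 2C::HSVTK, meant to let ganciclovir remove the 2C-like cells, a rare ESC state that resembles the 2-cell embryo. The viral thymidine kinase turns ganciclovir into a toxic nucleotide, so only cells that express the reporter should be sensitive. Dose, duration, the ESC line, the content of the Control cells and whether either line is 1 clone are not in the labels. Nothing says that paired libraries are separate cultures, and the p-values thus speak only of library-to-library spread, possibly technical.

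Nodal and its relatives activin and TGF-beta signal through receptors that phosphorylate SMAD2 and SMAD3, and Nodal needs the co-receptor encoded by Tdgf1 (Cripto). The pathway turns on its own inhibitors: LEFTY1 and LEFTY2 block Nodal outside the cell, and SMAD7 blocks the receptors from inside. BMP4 signals through SMAD1, SMAD5 and SMAD9 and turns on the Id genes, whose proteins bind E proteins and keep them from DNA; in mouse ESCs the BMP and Id axis is known for restraining neural differentiation.

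RefSeq promoter windows, running from 250 bases before to 50 bases after the transcription start on GRCm38.p6, were matched for 5 of the 9 genes (Nodal, Tdgf1, Bmp4, Id2 and Id3). They were not matched for Lefty1, Lefty2 and Id1. The match left out the chromosome that holds Smad7, so no Smad7 window was searched. Of these 5 windows, the 3 that held a searched SMAD motif are shown, with the motif in capitals, because Id2, Id3 and Tdgf1 moved in different ways below. Id2 lies at chr12:25096043-25096342 on the minus strand, Id3 at chr4:136143572-136143871 on the plus strand and Tdgf1 at chr9:110946109-110946408 on the minus strand.
Id2: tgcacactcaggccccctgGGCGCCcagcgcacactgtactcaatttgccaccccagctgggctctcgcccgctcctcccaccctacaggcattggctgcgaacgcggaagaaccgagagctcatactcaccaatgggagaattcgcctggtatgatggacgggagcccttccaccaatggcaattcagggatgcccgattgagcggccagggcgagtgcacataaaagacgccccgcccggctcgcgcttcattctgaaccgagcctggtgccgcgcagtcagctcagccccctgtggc
Id3: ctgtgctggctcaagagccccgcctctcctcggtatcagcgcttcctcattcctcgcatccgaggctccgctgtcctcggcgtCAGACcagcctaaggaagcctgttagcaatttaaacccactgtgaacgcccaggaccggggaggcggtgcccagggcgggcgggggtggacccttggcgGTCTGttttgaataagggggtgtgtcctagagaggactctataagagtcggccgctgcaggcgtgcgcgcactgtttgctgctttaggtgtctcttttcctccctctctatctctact
Tdgf1: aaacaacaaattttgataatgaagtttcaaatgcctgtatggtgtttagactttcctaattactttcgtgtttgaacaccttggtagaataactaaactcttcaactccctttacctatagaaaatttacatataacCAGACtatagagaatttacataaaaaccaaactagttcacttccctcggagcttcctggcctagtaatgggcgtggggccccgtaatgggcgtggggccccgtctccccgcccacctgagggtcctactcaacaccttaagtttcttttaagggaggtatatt
Both strands were searched for 4 motifs spelled out below, none of which holds another. The Id2 window held GGCGCC (which reads the same on both strands), a GC motif of BMP-responsive SMADs, 231 bases before the start. The Id3 window held CAGAC, a SMAD3 and SMAD4 binding box, at 167 bases before the start and, on the other strand, where it reads GTCTG, at 68 bases before the start. The Tdgf1 window held CAGAC at 113 bases before the start. These letters are common: GGCGCC stood in 11.9% and CAGAC in 49.6% of all 32851 windows. GTCTAGAC, a longer box of the same SMADs that shares end letters with CAGAC, stood in 0.213% of windows and AATCCACA, a FOXH1 motif, in 0.855%. Neither stood in any of the 5 members' windows. Smad7 was left out of this search, so the absence says nothing of Smad7, nor of the unmatched Lefty1, Lefty2 and Id1.

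Libraries held 29704460 to 34184475 counts over genes. Replicates differed by more than counting noise in every group, as the chi-square statistic divided by its degrees of freedom was 3.58 to 8.39. The pluripotency genes Pou5f1, Sox2 and Nanog stood between 343 and 702 CPM (counts scaled to library size) in all libraries. By the edgeR quasi-likelihood test, Sox2 fell with ganciclovir in HSVTK cells (log2 fold change -0.31, adjusted p = 6.61e-05) and rose in Control cells (0.18, adjusted p = 0.0365). Under GANC, Sox2 was lower in HSVTK than in Control cells (-0.46, adjusted p = 2.07e-07). Nanog was higher in HSVTK cells under DMSO (0.18, adjusted p = 0.00926) and GANC (0.22, adjusted p = 0.00253), and Pou5f1 was not called. The 2C-like marker Zscan4c was higher, not lower, with ganciclovir in HSVTK cells: 8.53 and 8.88 CPM in HSVTK GANC libraries and 4.70 and 3.59 CPM in HSVTK DMSO libraries (log2 fold change 1.07 ± 0.18 SE, adjusted p = 4.28e-05, edgeR quasi-likelihood test). The libraries are therefore named by their labels, and every direction below rests on those labels. Of the 12 listed 2C genes, 10 were tested, and 7 of them rose in that comparison; their summed level was 65.1 and 70.04 CPM in the libraries labelled HSVTK GANC, against 34.2 and 34.3 CPM in those labelled HSVTK DMSO. It was 30.9 and 24.9 CPM in Control GANC and 31.1 and 30.2 CPM in Control DMSO, and none of the 12 was at 0 in all 8 libraries. Mitochondrial genes took 3.56% and 3.45% of counts in HSVTK GANC libraries, 3.16% and 3.13% in HSVTK DMSO, 3.16% and 2.88% in Control GANC and 3.04% and 3.17% in Control DMSO. In HSVTK cells with ganciclovir 4 of 10 pluripotency markers fell and the rest did not pass (summed level 4263 and 4179 CPM in HSVTK GANC, 4394 and 4420 CPM in HSVTK DMSO). Marker lists of other cell types also held calls there, with 3 of 8 tested mesoderm, 1 of 10 primitive endoderm and 1 of 4 neuroectoderm markers higher. Of 9 trophectoderm markers 1 was higher and 2 lower, and of 6 fibroblast markers 1 was higher and 1 lower. Beside these counts, 13.3% of all tested genes were higher and 15.2% lower there, and no marker list was tested as a set. Between the lines under DMSO, 6 of 10 pluripotency markers were higher in HSVTK cells and 1 lower. There 2 of 10 primitive endoderm markers were higher and 2 of 4 neuroectoderm markers lower, beside 16.4% and 17.3% of all tested genes. Under GANC, 4 primitive endoderm, 3 pluripotency and 9 of 10 2C genes were higher, and 1 pluripotency marker was lower. Of the 4 neuroectoderm markers, 1 was higher and 2 lower under GANC, beside 11.1% and 14.9% of all tested genes. The mesoderm, trophectoderm and fibroblast lists also held calls under at least 1 agent. Hand1 is on both the mesoderm and the trophectoderm list, and none of the listed genes was at 0 in all 8 libraries. The 10 primitive endoderm markers summed to 12.2 to 13.8 CPM in the 4 HSVTK libraries and 6.47 to 9.08 CPM in the 4 Control libraries. The 10 mesoderm markers summed to 9.86 and 11.3 CPM in HSVTK GANC against 5.30 and 6.13 CPM in HSVTK DMSO, with 5.15 to 8.03 CPM in the Control libraries. The 10 trophectoderm markers summed to 40.15 and 40.7 CPM in HSVTK GANC and to 49.1 to 60.6 CPM in the 6 other libraries. The 8 neuroectoderm markers summed to 114.5 to 173.6 CPM over the 8 libraries, and the 10 fibroblast markers to 24.05 to 27.2 CPM in the HSVTK and 14.25 to 21.1 CPM in the Control libraries. Some sums were led by 1 gene, named after its counts were seen. Thy1 led the fibroblast sum, with 476 to 572 counts in HSVTK and 227 to 336 in Control libraries. Tfap2c led the trophectoderm sum, with 580 and 610 counts in HSVTK GANC and 989 to 1287 elsewhere. Krt8 there was highest in HSVTK GANC (309 and 333). Tubb3 led the neuroectoderm sum (3337 to 4321 counts). Pax6 there had 220 to 310 counts in HSVTK and 752 to 1298 in Control libraries. The part of these marker differences in the results below was not tested.

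Per length of gene, in FPKM, Tdgf1 was the most abundant of the 9 in every group, with mean levels of 318 in HSVTK GANC, 498 in HSVTK DMSO, 253 in Control GANC and 210 in Control DMSO. Id2 was the least abundant in 3 groups, with mean levels of 4.48 FPKM in HSVTK GANC, 4.85 in HSVTK DMSO and 10.9 in Control GANC. In Control DMSO it averaged 17.6 FPKM, above Smad7 at 12.3 and Bmp4 at 14.6 FPKM. The other 7 genes had group means between 12.3 and 80.4 FPKM. All levels below are CPM scaled by TMM library factors, which compare libraries and not genes.

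**Figure D1:**
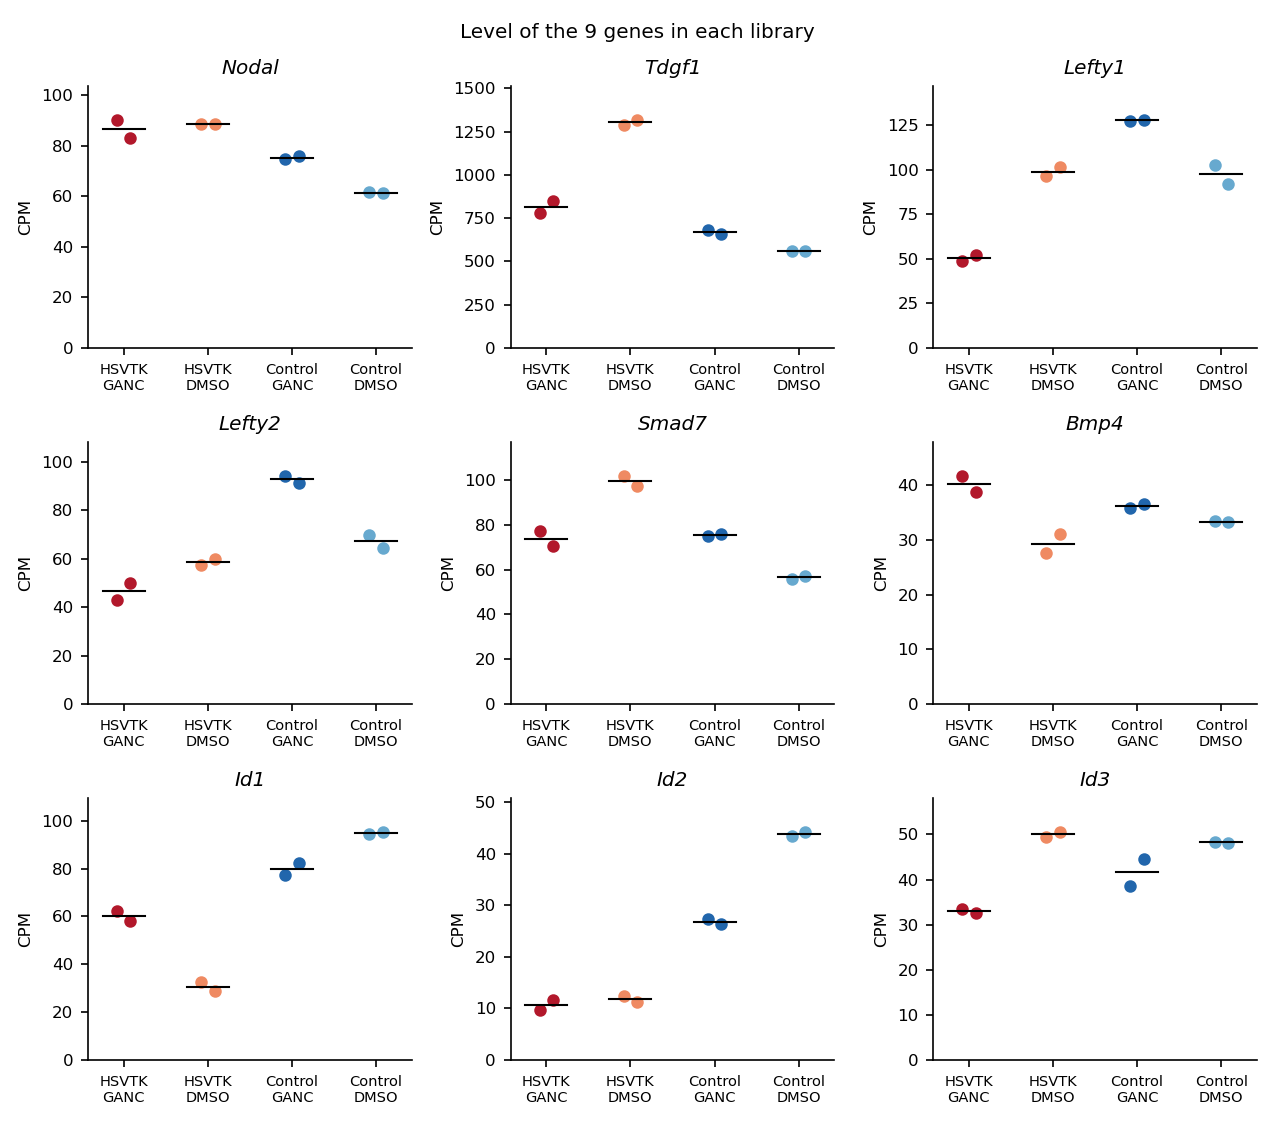
CPM of each gene (vertical axes, from 0) in the 2 libraries of each group (points), with the group mean as a bar. Lefty1 is lowest in HSVTK GANC (48.6 and 52.3 CPM), Tdgf1 highest in HSVTK DMSO (1291 and 1316 CPM), Id1 lowest in HSVTK DMSO (32.6 and 28.7 CPM) and Id2 low in both HSVTK groups.

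Nodal, the ligand, stood at 90.1 and 82.9 CPM in HSVTK GANC, 88.6 and 88.5 CPM in HSVTK DMSO, 74.7 and 75.8 CPM in Control GANC and 61.6 and 61.4 CPM in Control DMSO. The HSVTK libraries were the higher ones with either agent, the 2 HSVTK groups overlapped, and the 2 Control groups did not. Tdgf1, the co-receptor, stood at 778 and 849 CPM in HSVTK GANC, 1291 and 1316 CPM in HSVTK DMSO, 681 and 659 CPM in Control GANC and 558 and 563 CPM in Control DMSO. No 2 groups overlapped for Tdgf1, and HSVTK DMSO stood far above the rest. Its mean and spread were 813 ± 50.4 CPM in HSVTK GANC against 1303 ± 17.9 CPM in HSVTK DMSO, and 669.6 ± 15.6 CPM in Control GANC against 560.5 ± 3.69 CPM in Control DMSO (SD, n = 2 libraries each). Tdgf1 has a processed copy, Tdgf1-ps1, which had 1399 to 4083 counts in these libraries. Of the 100-base windows of the longest Tdgf1 transcript, 4.69% stand unchanged in that copy, and of its 50-base windows 12.5% do. Some reads could thus have been placed on either.

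The extracellular inhibitors were lowest where ganciclovir met the reporter. Lefty1 stood at 48.6 and 52.3 CPM in HSVTK GANC, 96.3 and 102 CPM in HSVTK DMSO, 128 and 128 CPM in Control GANC and 103 and 92.2 CPM in Control DMSO. Lefty2 stood at 42.8 and 50.1 CPM in HSVTK GANC, 57.5 and 59.9 CPM in HSVTK DMSO, 94.0 and 91.3 CPM in Control GANC and 69.8 and 64.5 CPM in Control DMSO. For both genes Control GANC was the highest group and HSVTK GANC the lowest, and only Lefty1 in HSVTK DMSO and Control DMSO overlapped. Lefty1 and Lefty2 are close copies. In their longest transcripts, 4.8% of Lefty1 and 3.07% of Lefty2 windows of 100 bases stand unchanged in the other gene. For windows of 50 bases the shares were 17.9% and 11.6%, and for windows of 150 bases 0%. Smad7, the intracellular inhibitor, followed another order, with 77.2 and 70.3 CPM in HSVTK GANC, 102 and 97.3 CPM in HSVTK DMSO, 74.8 and 75.7 CPM in Control GANC and 55.8 and 57.3 CPM in Control DMSO. HSVTK DMSO was highest and Control DMSO lowest for Smad7, and the 2 GANC groups overlapped.

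Bmp4, the BMP ligand, stood at 41.6 and 38.8 CPM in HSVTK GANC, 27.5 and 31.1 CPM in HSVTK DMSO, 35.8 and 36.6 CPM in Control GANC and 33.4 and 33.2 CPM in Control DMSO. No 2 groups that stood next to each other in order overlapped. The genes Gm15217 and Gm15222 lie over Bmp4 on the other strand and had 0 to 62 counts a library; the sources used here do not give whether the counting used strand. Id1 stood at 62.3 and 58.2 CPM in HSVTK GANC, 32.6 and 28.7 CPM in HSVTK DMSO, 77.4 and 82.1 CPM in Control GANC and 94.6 and 95.2 CPM in Control DMSO. Its 4 groups did not overlap, and HSVTK DMSO was the low one. Id2 stood at 9.67 and 11.7 CPM in HSVTK GANC, 12.3 and 11.3 CPM in HSVTK DMSO, 27.3 and 26.3 CPM in Control GANC and 43.3 and 44.1 CPM in Control DMSO. The 2 HSVTK groups overlapped and lay below both Control groups. Id3 stood at 33.5 and 32.5 CPM in HSVTK GANC, 49.5 and 50.5 CPM in HSVTK DMSO, 38.6 and 44.6 CPM in Control GANC and 48.4 and 48.2 CPM in Control DMSO, so that the GANC libraries were the lower ones in both lines.

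With ganciclovir in HSVTK cells, 3 inhibitors and the co-receptor of the Nodal branch fell, while Id1 rose and Id3 fell. Lefty1 fell by 0.97 ± 0.07 on the log2 scale, a level 1.96-fold lower (adjusted p = 3.93e-11, edgeR quasi-likelihood test with Benjamini-Hochberg adjustment over all tested genes, as for all adjusted p below). Tdgf1 fell by 0.68 ± 0.05 (adjusted p = 7.89e-11), Smad7 by 0.43 ± 0.07 (adjusted p = 2.86e-05) and Lefty2 by 0.34 ± 0.08 (adjusted p = 0.00183). Nodal itself, with a log2 fold change of -0.03 ± 0.07 (adjusted p = 0.757), did not pass the test. Id1 rose by 0.98 ± 0.08 (adjusted p = 2.97e-10) and Bmp4 by 0.45 ± 0.09 (adjusted p = 0.000237), whereas Id3 fell by 0.60 ± 0.08 (adjusted p = 3.2e-06). Id2, at -0.14 ± 0.11 (adjusted p = 0.375), did not pass. In all, 2 members rose and 5 fell, where 28.5% of all tested genes were called, 13.3% higher and 15.2% lower; without TMM factors the split of all genes was 2758 higher and 2325 lower, against 2391 and 2728 with them, and the members' counts stayed 2 and 5. The median log2 fold change was -0.34 over the members and 0.01 over all tested genes. The libraries did not overlap for 7 of the 9 members, where they did not for 64.2% of all tested genes. In bulk RNA, fewer cells of a type and less RNA per cell cannot be told apart. Without the library HSVTK GANC replicate 1 the Lefty2 call was lost (-0.23, adjusted p = 0.0671), and limma on log2(FPKM + 1) of all genes with a value also lost it (adjusted p = 0.0833).

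With ganciclovir in Control cells, all 5 members of the Nodal branch rose: Lefty2 by 0.46 ± 0.08 (adjusted p = 0.000393), Smad7 by 0.41 ± 0.07 (adjusted p = 0.000597), Lefty1 by 0.39 ± 0.07 (adjusted p = 0.000765), Nodal by 0.29 ± 0.07 (adjusted p = 0.00923) and Tdgf1 by 0.26 ± 0.05 (adjusted p = 0.00241). Of the BMP targets, Id2 fell by 0.71 ± 0.10 (adjusted p = 4.3e-05) and Id1 by 0.25 ± 0.07 (adjusted p = 0.0334). Id3, at -0.21 ± 0.08 (adjusted p = 0.114), and Bmp4, at 0.12 ± 0.09 (adjusted p = 0.463), did not pass the test. The count of 7 called members, 5 higher and 2 lower, stands beside 8.08% of all tested genes, 4.73% higher and 3.35% lower. The libraries did not overlap for any of the 9 members, where they did not for 49.5% of all tested genes. The median log2 fold change was 0.26 over the members and 0.00 over all tested genes. Nodal lost its call without Control DMSO replicate 1 (0.30, adjusted p = 0.0804) or replicate 2 (0.30, adjusted p = 0.0919). Id1 lost its call without Control DMSO replicate 1 (adjusted p = 0.175) or 2 (0.235), Control GANC replicate 1 (0.154), or either HSVTK DMSO library (0.059 and 0.0591), and Id3 moved to -0.10 without Control GANC replicate 1 (adjusted p = 0.593) and gained a call without replicate 2 (-0.32, adjusted p = 0.0423); limma on log2(FPKM + 1) lost Tdgf1 (adjusted p = 0.058) and Id1 (0.101), and without a filter it called 0 of the 9 members, although 8 had an unadjusted p under 0.05 there and DESeq2 called 7.

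The responses of the 2 lines share no library, and their difference was tested as an interaction. All 9 members passed that test, where 25.6% of all tested genes did, 11.6% higher and 14% lower. As the members were chosen with earlier results of these data known, their counts in every comparison are descriptions beside the share of all genes. The response in HSVTK cells was below that in Control cells for 6 genes. The difference was -1.36 ± 0.10 on the log2 scale for Lefty1 (adjusted p = 3.92e-11), -0.94 ± 0.07 for Tdgf1 (adjusted p = 1.6e-10), -0.84 ± 0.10 for Smad7 (adjusted p = 3.12e-07) and -0.80 ± 0.11 for Lefty2 (adjusted p = 3.5e-06). It was -0.38 ± 0.12 for Id3 (adjusted p = 0.0158) and -0.33 ± 0.10 for Nodal (adjusted p = 0.014). It was above 0 for Id1 (1.23 ± 0.11, adjusted p = 1.86e-09), Id2 (0.56 ± 0.15, adjusted p = 0.00585) and Bmp4 (0.33 ± 0.12, adjusted p = 0.0469). The median difference was -0.38 over the members and 0.02 over all tested genes. Bmp4 lost its call without any 1 of 7 libraries (adjusted p = 0.0616 to 0.295), with no filter (0.107), in DESeq2 (0.0505) and in unfiltered log2(FPKM + 1) (0.0872). Id3 lost its call without Control GANC replicate 2 (adjusted p = 0.0813) or HSVTK DMSO replicate 2 (0.056), Id2 when replicate 2 of HSVTK GANC (0.0857) or of HSVTK DMSO (0.0506) was left out and Nodal without HSVTK GANC replicate 2 (0.0599). Id3 also lost it in unfiltered log2(FPKM + 1) (0.0795).

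**Figure D2:**
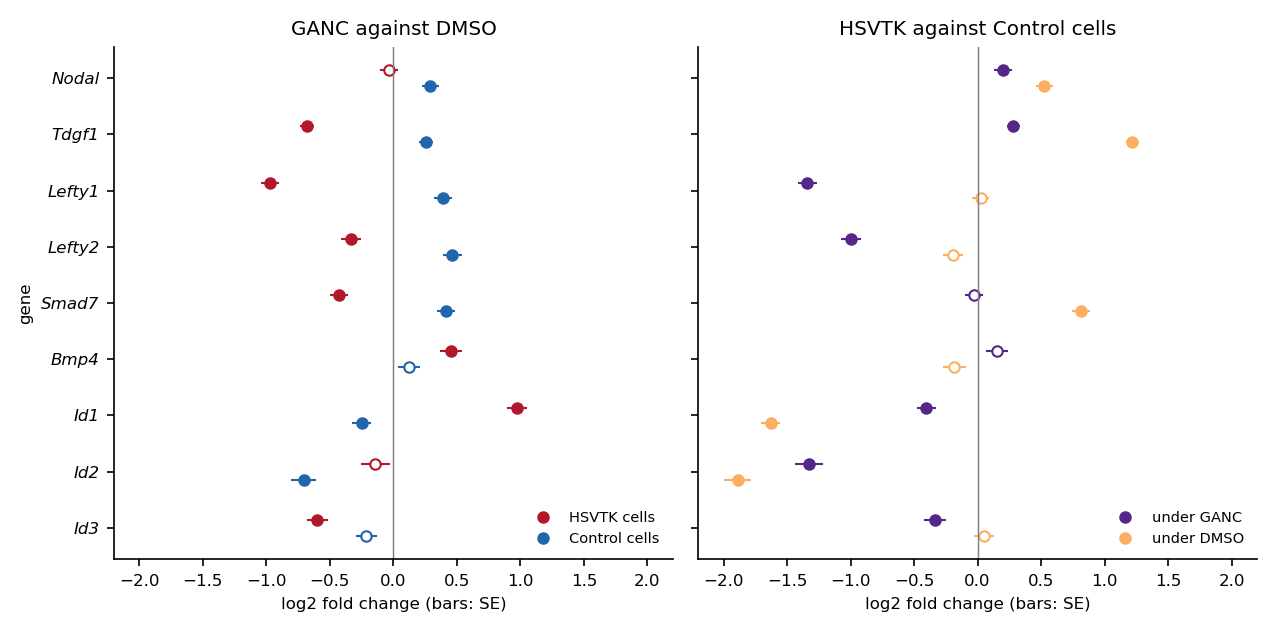
Log2 fold changes (horizontal axes) with SE bars for the 9 genes, on the left for GANC against DMSO in HSVTK and Control cells and on the right for HSVTK against Control cells under GANC and under DMSO; filled points passed the test. On the left the HSVTK and Control points of Tdgf1, Lefty1, Lefty2 and Smad7 lie on opposite sides of 0, as do those of Id1.

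The 2 lines also differed without the drug. Under DMSO, HSVTK cells had 2.33-fold more Tdgf1 than Control cells (log2 fold change 1.22 ± 0.05, adjusted p = 1.81e-16), more Smad7 (0.81 ± 0.07, adjusted p = 3.61e-10) and more Nodal (0.53 ± 0.07, adjusted p = 7.27e-07). The levels of Id1 and Id2 were 3.10-fold and 3.71-fold lower in HSVTK cells (log2 fold changes -1.63 ± 0.08 and -1.89 ± 0.10, adjusted p = 1.87e-15 and 3.26e-14). Lefty2 (-0.20, adjusted p = 0.0541), Bmp4 (-0.18, adjusted p = 0.116), Id3 (0.05, adjusted p = 0.686) and Lefty1 (0.02, adjusted p = 0.837) did not pass. So 3 members were higher and 2 lower, where 33.7% of all tested genes were called, 16.4% higher and 17.3% lower; without TMM factors all genes split into 3233 higher and 2818 lower, against 2957 and 3103 with them, and the members' counts stayed 3 and 2. The libraries did not overlap for 8 of the 9 members, where they did not for 67.3% of all tested genes. The median log2 fold change was 0.02 over the members and 0.00 over all tested genes. Lefty2 was called, as lower, without any 1 of the 4 GANC libraries (adjusted p = 0.04 to 0.0439) and in a fit of the 4 DMSO libraries alone (0.0112).

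Under GANC, HSVTK cells had less Lefty1 than Control cells (log2 fold change -1.34 ± 0.07, adjusted p = 2.61e-14), less Id2 (-1.33 ± 0.11, adjusted p = 1.5e-10), less Lefty2 (-0.996 ± 0.08, adjusted p = 9.13e-11), less Id1 (-0.40 ± 0.08, adjusted p = 0.000166) and less Id3 (-0.33 ± 0.08, adjusted p = 0.00368). Tdgf1 was higher (0.28 ± 0.05, adjusted p = 0.000148), as was Nodal (0.20 ± 0.07, adjusted p = 0.0312). Bmp4 (0.15, adjusted p = 0.217) and Smad7 (-0.03, adjusted p = 0.804) did not pass. The counts of 2 members higher and 5 lower stand beside 26.1% of all tested genes, 11.1% higher and 14.9% lower; without TMM factors all genes split into 2579 higher and 2190 lower, against 2004 and 2681 with them, and the members' counts stayed 2 and 5. The libraries did not overlap for 8 of the 9 members, where they did not for 59.6% of all tested genes. The median log2 fold change was -0.33 over the members and 0.01 over all tested genes. The Nodal call was lost without any 1 of 7 libraries, the exception being HSVTK GANC replicate 2 (adjusted p = 0.061 to 0.297, the last with 0.13 without HSVTK GANC replicate 1), with no filter (0.114) and in a fit of the 4 GANC libraries alone (0.0949), and the Id3 call without Control GANC replicate 2 (0.0766) and in unfiltered log2(FPKM + 1) (0.0567). These comparisons of the lines share libraries with the comparisons of the agents, so their values are not independent of each other.

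Ratios of raw counts between members of the same library need no scaling, and are given as descriptions. There were 0.539 and 0.631 Lefty1 counts per Nodal count in HSVTK GANC, 1.09 and 1.148 in HSVTK DMSO, 1.71 and 1.69 in Control GANC and 1.67 and 1.502 in Control DMSO. The inhibitor was thus scarcest relative to its ligand in HSVTK GANC, and the HSVTK groups overlapped neither each other nor the Control groups. Lefty1 also shifted against its close copy, with 1.14 and 1.04 counts per Lefty2 count in HSVTK GANC, 1.67 and 1.70 in HSVTK DMSO, 1.36 and 1.399 in Control GANC and 1.47 and 1.43 in Control DMSO. Tdgf1 had 8.63 and 10.2 counts per Nodal count in HSVTK GANC, 14.6 and 14.9 in HSVTK DMSO, 9.12 and 8.68 in Control GANC and 9.06 and 9.17 in Control DMSO. Only HSVTK DMSO stood apart in that ratio. Id1 had 1.86 and 1.79 counts per Id3 count in HSVTK GANC, 0.659 and 0.569 in HSVTK DMSO, 2.00 and 1.84 in Control GANC and 1.96 and 1.98 in Control DMSO. Here too HSVTK DMSO stood apart, and HSVTK GANC and Control GANC overlapped. Against its ligand, Id1 had 1.497 and 1.501 counts per Bmp4 count in HSVTK GANC, 1.18 and 0.923 in HSVTK DMSO, 2.16 and 2.25 in Control GANC and 2.83 and 2.87 in Control DMSO, with no overlap between groups.

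**Figure D3:**
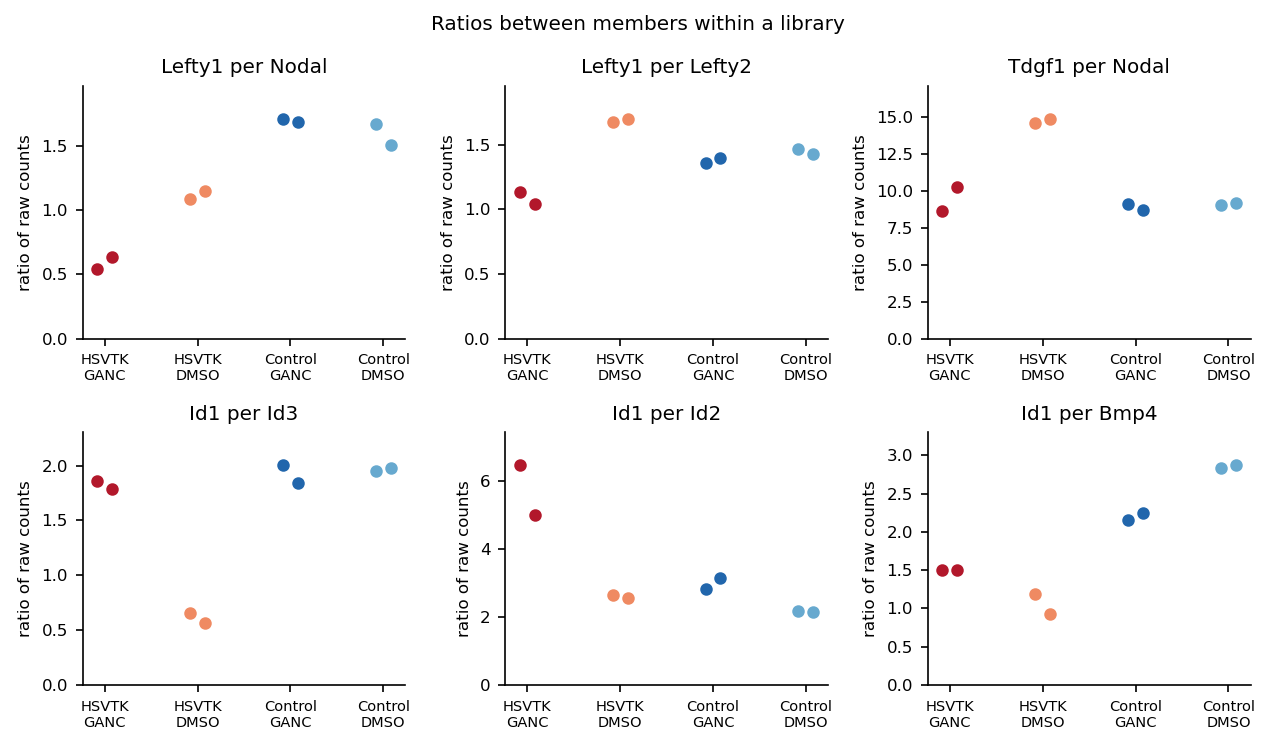
Ratio of raw counts of 2 members in each library (vertical axes, from 0) by group (points are libraries). Lefty1 per Nodal is lowest in HSVTK GANC (0.539 and 0.631), while Tdgf1 per Nodal is highest (14.6 and 14.9) and Id1 per Id3 lowest (0.659 and 0.569) in HSVTK DMSO.

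Other genes of the 2 pathways were read from lists of ligands, receptors and effectors, inhibitors, and targets. Of 43 further genes of the Nodal, activin and TGF-beta branch 36 were tested, and of 48 further genes of the BMP branch 34 were tested. With ganciclovir in HSVTK cells, 3 of the 36 Nodal branch genes rose and 11 fell (median log2 fold change -0.18, against 0.01 over all tested genes). That was 8.33% higher and 30.6% lower, beside 13.3% and 15.2% of all tested genes; no test of the list was made here or below. Of the 8 tested targets, 5 fell and 3 did not pass. Eomes, a mesendoderm transcription factor that is also among the trophectoderm markers above, fell by 0.89 on the log2 scale (adjusted p = 0.00028), Ccn2, a matricellular protein gene, by 0.58 (adjusted p = 3.23e-05) and Klf10, a TGF-beta-induced zinc finger gene, by 0.48 (adjusted p = 7.01e-06). Another target, Pmepa1, which encodes a feedback inhibitor, was chosen here after its values were seen and changed by -0.29 (adjusted p = 0.0312). Its call was lost when replicate 1 of HSVTK GANC (adjusted p = 0.188) or of HSVTK DMSO (0.241) was left out, without TMM factors (0.0584) and in limma on log2(FPKM + 1) (0.107).

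Among the inhibitors and processing enzymes, Skil, whose product SnoN represses SMAD complexes, stood at 80.0 and 76.4 CPM in HSVTK GANC libraries, against 145 and 143 CPM in HSVTK DMSO libraries. It fell by 0.88 ± 0.07 (adjusted p = 5.09e-11). Furin, a convertase that cleaves the Nodal precursor, fell by 1.17 ± 0.14 (adjusted p = 3.87e-07), with 4.91 and 5.35 CPM in HSVTK GANC libraries, against 10.998 and 12.1 CPM in HSVTK DMSO libraries. Gdf3, a Nodal-related ligand, rose by 0.43 ± 0.07 (adjusted p = 1.22e-05) and stood at 134 and 143 CPM in HSVTK GANC libraries, against 104 and 102 CPM in HSVTK DMSO libraries. The groups of these 3 genes did not overlap. The receptor gene Acvr1b (-0.39, adjusted p = 0.00281) and the receptor-degrading ligase gene Smurf2 (-0.39, adjusted p = 0.000457) fell as well; unfiltered log2(FPKM + 1) lost Acvr1b (0.0905). The calls of Acvr2b, an activin receptor gene (-0.52), of Inhbb, the activin B subunit gene (0.34), and of Fst, which encodes the activin-binding follistatin (0.93), passed with all libraries (adjusted p = 0.00177, 0.00127 and 0.00446) but not without one of them. Without HSVTK DMSO replicate 1 Acvr2b was lost (-0.32, adjusted p = 0.118), and without HSVTK GANC replicate 1 Inhbb (0.24, adjusted p = 0.0674) and Fst (0.55, adjusted p = 0.179) were lost.

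In the BMP branch, 3 of 34 tested genes rose and 6 fell in the same comparison (median -0.21). The share called, 26.5%, was near the 28.5% of all tested genes. Its 4 tested ligands did not pass (adjusted p = 0.0846 to 0.92). Eng, an accessory receptor for TGF-beta and BMP9, stood at 27.2 and 22.1 CPM in HSVTK GANC libraries, against 14.4 and 12.8 CPM in HSVTK DMSO libraries, and rose by 0.86 ± 0.11 (adjusted p = 1.25e-06). Twsg1, a secreted BMP binding protein, fell by 0.67 ± 0.08 (adjusted p = 1.16e-07), with 41.7 and 39.7 CPM in HSVTK GANC libraries, against 64.7 and 65.2 CPM in HSVTK DMSO libraries. The BMP antagonist Chrd rose by 1.09 ± 0.25 (adjusted p = 0.00177) and the BMP type I receptor Acvr1 fell by 0.96 ± 0.20 (adjusted p = 0.000534). Unfiltered log2(FPKM + 1) lost both calls (adjusted p = 0.119 and 0.0666). Smad6, the inhibitory SMAD of the BMP branch, fell by 0.91 ± 0.23 (adjusted p = 0.00313), but its 2 HSVTK GANC libraries were far apart, at 3.36 and 1.76 CPM, and it lost its call without replicate 2 of that group (-0.52, adjusted p = 0.131) and moved to -1.44 without replicate 1. Dusp9, a phosphatase gene that BMP induces in mouse ESCs, fell by 0.38 (adjusted p = 0.000569), or by 0.26 without HSVTK GANC replicate 2, and unfiltered log2(FPKM + 1) lost it (0.12). Smurf1 (-0.37, adjusted p = 0.00307) and the type II receptor gene Bmpr2 (-0.39, adjusted p = 0.0145) were lost without 1 library: Smurf1 when replicate 2 of HSVTK GANC (0.0643) or of HSVTK DMSO (0.0797) was left out, Bmpr2 when replicate 1 of HSVTK GANC (0.0886) or of HSVTK DMSO (0.187) was. In this comparison limma on filtered log2(FPKM + 1) also lost Smad6 (0.067), Smurf1 (0.0546), Bmpr2 (0.213), Acvr2b (0.0577) and Fst (0.0582). The 3 E protein genes that Id proteins bind, Tcf3, Tcf4 and Tcf12, were named after their values were seen, and were not called in this comparison (adjusted p = 0.0792, 0.0955 and 0.588; the first 2 had an unadjusted p under 0.05).

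In Control cells with ganciclovir, 4 Nodal branch genes rose and 2 fell of 36 (median 0.08), and 2 of 34 BMP branch genes rose and the rest did not pass (median 0.06), where the median over all tested genes was 0.00. The shares called were 16.7% of the Nodal branch and 5.88% of the BMP branch, beside 8.08% of all tested genes. Gdf3 fell here by 0.40 (adjusted p = 0.000393), with 95.6 and 106 CPM in Control GANC libraries, against 136 and 131 CPM in Control DMSO libraries. Dusp9 rose by 0.50 (adjusted p = 0.000337), with 107 and 127 CPM in Control GANC libraries, against 85.5 and 79.9 CPM in Control DMSO libraries. Unfiltered log2(FPKM + 1) lost both calls (adjusted p = 0.0863 and 0.159), and the filtered fit that of Dusp9 (0.0606). Smad3 (0.80, adjusted p = 0.00103), Pcsk6 (0.57, adjusted p = 0.000765) and Inhbb (0.52, adjusted p = 0.000443) rose and Ccn2 (-0.60, adjusted p = 0.000229) fell; the unfiltered fit lost these 4 as well (adjusted p = 0.0915 to 0.145), and the filtered fit also lost Smad3 (0.0622) and Pcsk6 (0.0551). The calls of Acvr1b (0.40, adjusted p = 0.0128), Smurf1 (0.37, adjusted p = 0.0117) and Tcf3 (0.26, adjusted p = 0.0119) were lost in the filtered fit (0.0981, 0.107 and 0.0698) and without Control DMSO replicate 1 (0.206, 0.112 and 0.0722). They were also lost without Control DMSO replicate 2 for Smurf1 (0.0553) and Tcf3 (0.135), without Control GANC replicate 1 for Acvr1b (0.0703) and without Control GANC replicate 2 for Smurf1 (0.148) and Tcf3 (0.166, with 0.17). In the test of the difference between the 2 lines' responses, 2 Nodal branch genes were higher and 13 lower (median -0.20), and 3 BMP branch genes were higher and 6 lower (median -0.48, against 0.02 over all tested genes). In this test 5.56% of the Nodal branch was higher and 36.1% lower, beside 11.6% and 14% of all tested genes, and the 26.5% called in the BMP branch was near the 25.6% of all tested genes. Furin (-1.60), Dusp9 (-0.88) and Skil (-0.80) were among the lower ones (adjusted p = 6.26e-07, 1.32e-06 and 1.61e-07), and Gdf3 (0.84) and Eng (0.86) among the higher ones (adjusted p = 1.37e-07 and 0.000147).

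Between the lines under DMSO, 10 Nodal branch genes were higher in HSVTK cells and 5 lower of 36 (median 0.12, against 0.00 over all tested genes), which is 27.8% and 13.9%, beside 16.4% and 17.3% of all tested genes. Inhbb, the activin B subunit gene, stood at 71.4 and 70.2 CPM in HSVTK DMSO libraries, against 19.8 and 20.6 CPM in Control DMSO libraries, a log2 fold change of 1.81 ± 0.09 (adjusted p = 1.26e-15). Pcsk6, which encodes another Nodal convertase, was also higher (1.64 ± 0.10, adjusted p = 1.59e-13), with 48.5 and 44.5 CPM in HSVTK DMSO libraries, against 16.0 and 13.8 CPM in Control DMSO libraries. The receptor gene Acvr1b (0.74, adjusted p = 8.36e-07) was higher too. Foxh1, which encodes a SMAD2 partner (-0.62, adjusted p = 1.96e-06), was lower. In the BMP branch 4 of 34 were higher and 5 lower (median 0.01), a share of 26.5% called beside 33.7% of all tested genes, among them Dusp9 (0.87, adjusted p = 1.52e-09) and Chrd (-1.65, adjusted p = 5.93e-06).

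Between the lines under GANC, 4 Nodal branch genes were higher and 12 lower (median -0.04), and 5 of 34 BMP branch genes were lower and the rest did not pass (median -0.27, against 0.01 over all tested genes). The 33.3% of the Nodal branch that was lower stands beside 14.9% of all tested genes, and its 11.1% higher and the 14.7% lower in the BMP branch are near the shares of all tested genes (11.1% and 14.9%). Inhbb (1.63, adjusted p = 9.41e-15) and Pcsk6 (1.01, adjusted p = 2.06e-09) were higher in HSVTK cells. Smad3, which encodes a Nodal effector, was lower (-1.25 ± 0.15, adjusted p = 2.07e-07), with 5.64 and 6.19 CPM in HSVTK GANC libraries, against 13.0 and 15.3 CPM in Control GANC libraries. Skil (-1.11, adjusted p = 2.86e-13) and Smad6 (-1.55, adjusted p = 4.19e-06) were lower as well. All 3 E protein genes were lower in HSVTK cells, at -0.69 for Tcf4 (adjusted p = 2.25e-07), -0.57 for Tcf12 (adjusted p = 0.000578) and -0.27 for Tcf3 (adjusted p = 0.00236). Of these calls, limma on log2(FPKM + 1) lost Tcf12 (adjusted p = 0.0692) and, unfiltered, Tcf3 (0.0906). Tcf4 (-0.48, adjusted p = 3.62e-05) and Tcf12 (-0.65, adjusted p = 8.95e-05) were lower in HSVTK cells under DMSO too, where Tcf3 was not called.

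**Figure D4:**
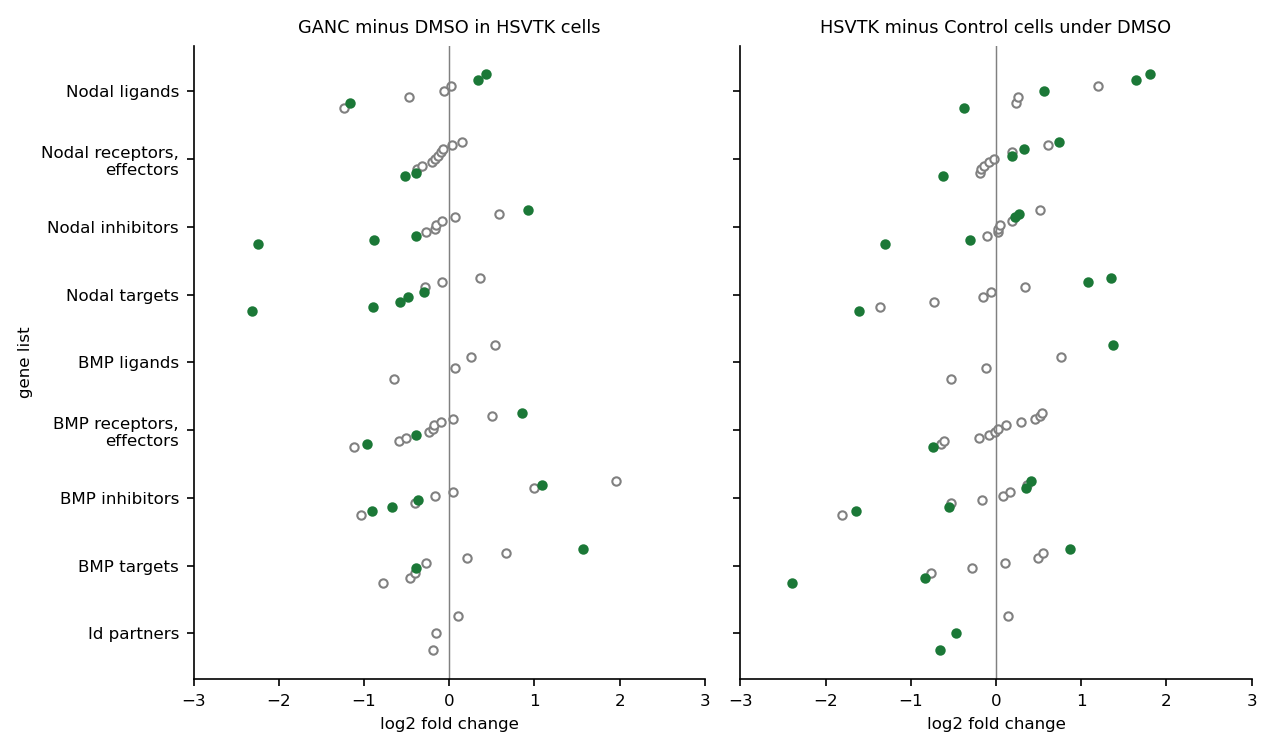
Log2 fold changes (horizontal axes) of the tested genes of each pathway list (rows), for GANC minus DMSO in HSVTK cells and for HSVTK minus Control cells under DMSO; each point is 1 gene and filled points passed the test. On the left 5 of the 8 Nodal targets passed, all below 0, and the 4 tested BMP ligands did not pass.

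Over the 8 libraries the levels of some members ran together or in opposite directions, which is given as a description because the libraries share 4 groups. For the most strongly correlated pairs, Pearson's r of log2 CPM was 0.9031 for Lefty1 and Lefty2 and 0.9222 for Tdgf1 and Smad7. It was -0.9958 for Tdgf1 and Id1, -0.9671 for Nodal and Id2 and -0.9024 for Smad7 and Id1. Other pairs were weaker, such as Bmp4 and Id3 (-0.8466), Nodal and Lefty1 (-0.3972) and Id1 and Id3 (-0.1951). Among 9660 other genes with a mean of at least 5 CPM, predicted genes and unnamed clones left out, those most like Lefty1 were Relb (0.998), Macroh2a1 (0.9962) and Hddc2 (0.9939). Those most like Nodal were Nfkb1 (0.9933), Dcaf7 (0.9909) and Zfyve28 (0.9907), and those most like Id1 were Glul (0.9955), Ptpn14 (0.9943) and Cbr3 (0.9942). The nearest to Bmp4 were Nit1 (0.9768), Trim35 (0.9752) and Rhot2 (0.9732).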

How the data were processed

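RNA sequencing libraries of mouse ESCs were grouped by their labelled cells and agent. The build GRCm39 and the tools featureCounts 2.0.1, HISAT2 2.1.0, DESeq2 1.40.2 and fastp 0.23.2 stand in the list per the submitters' processing notes, with no roles or parameters. The sources used here do not state strand, multi-mapping or annotation release. Per the labels' protocols, libraries were made from total RNA. The authors deposited whole-number counts per gene without normalization, and FPKM values. The deposited FPKM equal count divided by gene length and by the library's total over genes, within 0.0000049 over 456080 values, and were used for levels between genes. The other deposited column is gene length.

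The main test was edgeR 4.0.16 (R 4.3.3) on counts with TMM, filterByExpr by group, a mean per group over all 8 libraries (4 residual degrees of freedom, biological coefficient of variation 6.31%) and Benjamini-Hochberg adjustment over 17976 genes; calls are adjusted p under 0.05. SE was taken as |log2 fold change| over the root of F. CPM use TMM-scaled library sizes. Tests were checked on simulated data. Alternatives were RLE and library size scaling, no filter, DESeq2 1.42.0, fits of 4 libraries, leaving out each library, a replicate term and limma 3.58.1 with a mean-variance trend on log2(FPKM + 1) and log2(FPKM + 0.1). Replicate numbers only name libraries. Precision rests on 29704460 to 34184475 counts a library and 2 libraries a group.

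The members and lists were chosen with earlier results of these data known. Named were the members and, from each pathway list and comparison, up to 4 called genes with the lowest adjusted p and a mean of at least 1 CPM, given in full for ganciclovir in each line and by examples with the most stable calls elsewhere; genes outside this rule are marked, and some genes of the lists are counted but not reported here by name. Shared windows were taken from the longest GENCODE vM21 transcript of each member and sought in transcripts of other genes. Promoter windows were read from RefSeq on GRCm38.p6, whose coordinates are not those of the counts' build.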

Additional observations from a re-analysis of the deposited data

Results flagged for a closer look

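Each of the 9 members responded differently to ganciclovir in HSVTK and in Control cells by the test of the difference itself, the edgeR interaction term. The response in HSVTK minus that in Control cells was -1.36 (Lefty1), -0.94 (Tdgf1), -0.84 (Smad7), -0.80 (Lefty2), -0.38 (Id3), -0.33 (Nodal), 0.33 (Bmp4), 0.56 (Id2) and 1.23 (Id1) on the log2 scale. Of all tested genes, 25.6% passed the same test. The members were chosen with earlier results of these data known, so that share is no independent yardstick for them. The calls of Bmp4, Id3, Id2 and Nodal were lost without at least 1 library, as given with their adjusted p above.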

How the results depend on the processing

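For the members, 327 of 360 results kept their direction and side of the threshold when 1 library was left out (28 lost and 5 gained a call), as did 475 of 531 under other settings (55 lost and 1 gained), and no called value changed sign. Leaving out 1 library gave these ranges of calls over all genes and over the members: 3313 to 5627 and 6 to 7 for ganciclovir in HSVTK cells, 433 to 2010 and 5 to 8 in Control cells, 3415 to 4638 and 6 to 8 for the difference of responses, 4399 to 6560 and 5 to 6 between lines under DMSO, and 2999 to 4497 and 5 to 7 under GANC. Single libraries moved the count over all genes by more than 1.5 times for ganciclovir in HSVTK cells (3380 without HSVTK DMSO replicate 1 and 3313 without replicate 2), in Control cells (592 and 433 without Control DMSO replicates 1 and 2, 728 without Control GANC replicate 2) and between lines under GANC (2999 without HSVTK GANC replicate 2). The lone library of a group was then assumed to vary like the others. For ganciclovir in Control cells, a fit of the 4 libraries alone called 942 genes against 1453, and limma on FPKM called 190 with a pseudocount of 1, 251 with 0.1 and 29 with no filter (0 members, of which 8 had an unadjusted p under 0.05; DESeq2 called 7). Limma without a filter also called 2615 genes in HSVTK cells, 1981 for the difference, 3652 under DMSO and 2288 under GANC. Limma without its mean-variance trend was added after seeing the data. With pseudocounts 1 and 0.1 and with no filter it called 52, 0 and 47 genes and 1, 0 and 0 members in Control cells, where 3065 genes and 7 members had an unadjusted p under 0.05 at 0.1 and DESeq2 called 1536 and 7. At 0.1 and with no filter it called 2975 and 3133 genes in HSVTK cells, 2338 and 2448 for the difference, and 2603 and 2813 under GANC, with 5 members at 0.1 for the difference and 4 under GANC. The cause was not tested. Without TMM factors calls split into 2758 higher and 2325 lower in HSVTK cells (2391 and 2728 with them), 3233 and 2818 under DMSO (2957 and 3103) and 2579 and 2190 under GANC (2004 and 2681). Same-numbered libraries did not deviate together (r = -0.0319 to 0.0145), so the numbers only name samples; a replicate block called 4932, 1339, 4433, 5882 and 4517 genes and 7, 7, 8, 5 and 7 members in the order above, and of the members only the Bmp4 difference lost its call (adjusted p = 0.059). Genes that averaged under 1 CPM rest on few counts and are not named.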
